A study of Danio rerio with 16 samples.

Results

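Expression of 7 genes of sex steroid synthesis and reception was examined in the whole brain of zebrafish of both sexes. The set comprised the brain aromatase gene (cyp19a1b), 17-beta hydroxysteroid dehydrogenase 3 (hsd17b3), the 3 nuclear estrogen receptor genes (esr1, esr2a, esr2b), the androgen receptor gene (ar) and the nuclear progesterone receptor gene (pgr). Members were found by gene symbol, and all 7 were present among the 15304 protein coding genes of the table. Sex steroids act in the vertebrate brain by binding nuclear receptors that then regulate transcription, and the brain can itself make and convert these hormones. Aromatase turns androgens into estrogens. In teleost fishes the brain form is made by radial glia, the progenitor cells that line the ventricles, and it is known for a high activity in the adult brain. The enzyme encoded by hsd17b3 converts androstenedione to testosterone, which aromatase can use in turn.

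Fish of 4 strains were compared at an age of 17 weeks, untreated. The AB and Scientific Hatcheries (SH) strains came from commercial suppliers, whereas the High Stationary Behavior (HSB) and Low Stationary Behavior (LSB) strains were bred from wild-caught fish by selection on that behavior, and some fish of both selected strains had taken a behavioral test in the weeks before. For each strain and sex, the RNA of 10 brains was combined in each pool, and the pools of a kind held different fish. With 2 pools of each kind there were 16 libraries (8 female, 8 male) from 160 fish. Because whole brains were pooled, no value belongs to a single fish or a brain region, and fewer cells of a type cannot be told apart from less RNA per cell.

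Values are read counts scaled to the same total in every library (CPM), which carry no correction for gene length, so levels are compared between libraries and not between genes. Libraries held 18398865 to 35737825 reads on genes (median 28773428). The reads behind a single value ran from 44 to 129 for pgr, 96 to 194 for esr2a, 134 to 251 for esr1, 139 to 316 for esr2b, 173 to 1179 for hsd17b3, 367 to 749 for ar and 50178 to 205727 for cyp19a1b. The values of pgr were therefore the least precise. Differences between the sexes are given, with their standard errors (SE), as male minus female in log2(CPM + 0.5), a scale that understates changes of low genes. They were tested with limma, a linear model fitted to all genes, with Benjamini-Hochberg adjustment over all 15304 genes and a threshold of 0.05.

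The libraries labelled LSB female pool 2 and LSB male pool 2 stood apart from their labels. The gene f13a1a.1, encoding a coagulation factor XIII subunit, was chosen after its values were seen. It had 25.8 to 53.7 CPM in the 6 female libraries of AB, SH and HSB and 1.12 to 5.72 CPM in their 6 male libraries. Among LSB libraries the pools numbered 1 had 39.7 CPM (female) and 4.71 CPM (male), but those numbered 2 had 1.52 CPM (labelled female) and 54.5 CPM (labelled male). Apart from the members, 107 genes differed between the sexes without LSB, and f13a1a.1 was not taken out of this count. Of these genes, 72 had the same direction between the LSB pools numbered 1 and 46 between those numbered 2. The labels were kept, and the sex differences of all members are given with and without these libraries. What set them apart was not tested.

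Brain aromatase was higher in females than in males of AB, SH and HSB. Expression of cyp19a1b (ENSDARG00000009852) in AB was 3058 and 3168 CPM in the female pools and 1750 and 2222 CPM in the male pools. SH females had 5757 and 5373 CPM, and SH males 2944 and 3118 CPM. HSB females had 2820 and 3115 CPM, and HSB males 1985 and 2234 CPM. In each of these 3 strains both female pools lay above both male pools. The LSB pools numbered 1 followed this order, with 3301 CPM in the female and 2270 CPM in the male pool. Those numbered 2 did not, with 2228 CPM under the female and 3028 CPM under the male label, so the sexes overlapped. SH males reached the level of females of the other strains, and SH females stood above every other library.

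For hsd17b3 (ENSDARG00000023287) the direction was the opposite. AB females had 8.92 and 8.56 CPM and AB males 15.0 and 16.1 CPM. SH females had 14.5 CPM in both pools, against 36.7 and 35.0 CPM in SH males. HSB females had 9.54 and 12.5 CPM and HSB males 19.2 and 22.0 CPM. Both male pools lay above both female pools in each of the 3 strains. LSB had 9.13 CPM (female) and 13.1 CPM (male) in the pools numbered 1, whereas among those numbered 2 it had 14.6 CPM under the female label and 5.99 CPM, the lowest of the 16 libraries, under the male label. The annotated span of hsd17b3 overlaps that of slc20a2, a phosphate transporter gene, in the GRCz12tu assembly, which is not the build of the files. The kit used is generally known not to mark strand, so reads shared by overlapping genes could not be assigned. On the log2 scale slc20a2 differed by 0.06 between the sexes (SE 0.04, limma with Benjamini-Hochberg adjusted p = 0.622). Far more reads fell on it than on hsd17b3, with female libraries averaging 628 CPM and male ones 656 CPM, beside 11.5 and 20.4 CPM. Like hsd17b3, slc20a2 was highest in SH males, at 743 and 808 CPM. Males also lay above females in HSB, but the sexes overlapped in AB, and labelled LSB males lay below labelled LSB females. Whether shared reads contributed to the sex difference of hsd17b3 was not tested.

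**Figure D1:**
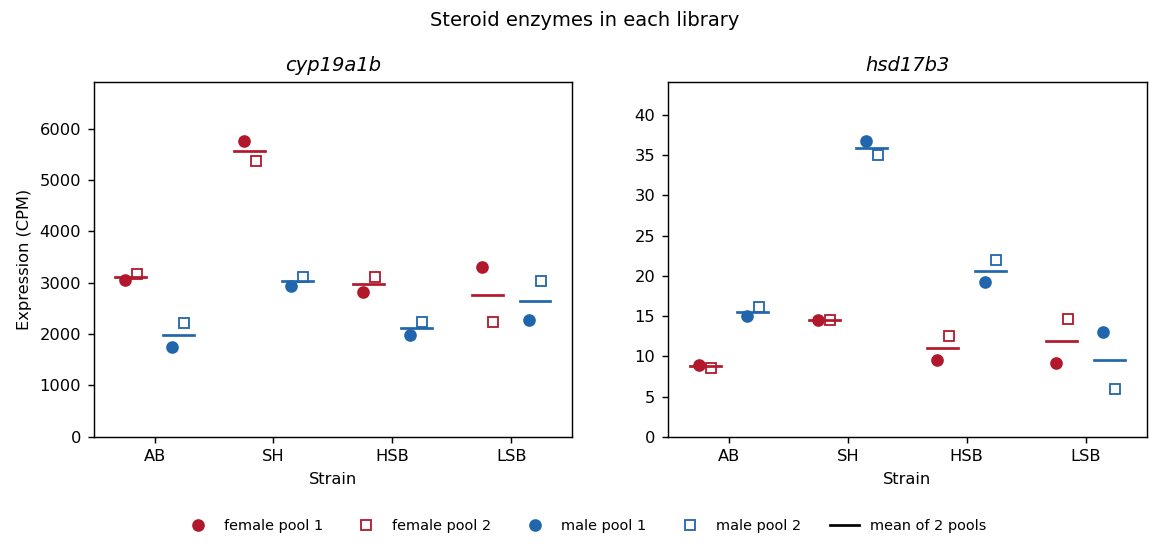
Expression of cyp19a1b (left) and hsd17b3 (right) in CPM for every library, by strain, with females in red, males in blue, pool 1 as filled circles, pool 2 as open squares and a line at the mean of the 2 pools. In AB, SH and HSB the sexes separate for both genes, and in LSB the pools numbered 2 lie the other way round from those numbered 1.

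Such a separation of the sexes in AB, SH and HSB, in 1 direction throughout, was seen for 2 of the 7 genes and for 3.38% of all genes. Members were chosen with earlier results of these data known. Shares of all genes, here and below, thus describe the members and do not test them as a set. With all 16 libraries in the model and strain as a cofactor, the sex difference was -0.52 for cyp19a1b (95% interval -0.75 to -0.29) and 0.65 for hsd17b3 (0.23 to 1.06). Neither passed the threshold (limma with Benjamini-Hochberg adjusted p = 0.116 and 0.265). Among the 7 genes, 0 were called in this limma test, where 0.0392% of all genes were called. At an unadjusted p under 0.05 there were 4 of 7 (cyp19a1b, hsd17b3, esr2a and pgr), against 10.2% of all genes. The LSB pools numbered 2 were singled out by values of these same data, and both enzymes went against the labels there. Tests that leave these pools out are therefore no independent support for a sex difference of the 2 genes. Without the LSB libraries both enzymes passed, and they were the only members that did, where 0.712% of all genes passed. The difference was then -0.68 for cyp19a1b (SE 0.07, limma with Benjamini-Hochberg adjusted p = 0.000158), which is 1.60-fold higher expression in females. For hsd17b3 it was 0.98 (SE 0.08, limma with Benjamini-Hochberg adjusted p = 2.12e-05), or 1.98-fold higher expression in males. Leaving out only the LSB pools numbered 2 gave -0.66 and 0.91, both with an adjusted p of 2.92e-05 from limma with Benjamini-Hochberg adjustment, and the same 2 of 7 genes passed against 0.523% of all genes. Over 26 alternative fits the adjusted p from limma ran up to 0.547 for cyp19a1b and 0.589 for hsd17b3, and each gene passed in 4, those without LSB, without both LSB pools 2 and without either of these pools alone.

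An exact permutation test for single genes, in which sex was reassigned within strains in every possible way, was run as well. With all 16 libraries its two-sided p, not adjusted over genes, was 0.00617 for cyp19a1b, 0.0231 for hsd17b3 and 0.0309 for pgr (exact permutation). These 3 of 7 genes were under 0.05, as were 10.5% of all genes. Without LSB the exact permutation p was 0.00926 for both enzymes, the smallest that the 216 assignments allow. In that test esr2b was the third member under 0.05 (exact permutation p = 0.0278) and pgr was not (exact permutation p = 0.120), where 11.4% of all genes were.

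**Figure D2:**
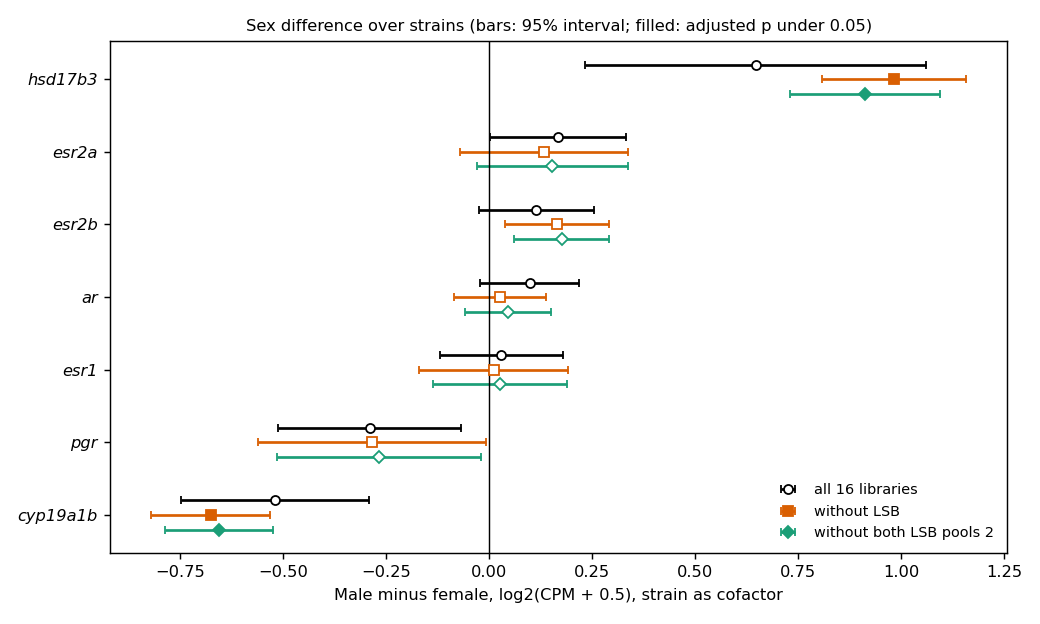
Male minus female difference in log2(CPM + 0.5) of the 7 genes over strains, with 95% intervals, for all 16 libraries (black circles), without LSB (orange squares) and without both LSB pools numbered 2 (green diamonds). Filled symbols have an adjusted p under 0.05 from limma, which only cyp19a1b and hsd17b3 have, in both sets that leave out LSB libraries.

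The 2 enzymes moved in opposite directions in the same libraries. After subtraction of strain means, Pearson's r between cyp19a1b and hsd17b3 was -0.90 over the 16 libraries and -0.92 over the 14 without the LSB pools numbered 2, a description of libraries that share strain and sex. Without that subtraction it was -0.14 over the 16 libraries, and SH had the highest strain mean for both genes. The log2 ratio of hsd17b3 to cyp19a1b was 1.49 higher in males than in females in AB, 2.18 higher in SH and 1.40 higher in HSB. In LSB the male minus female value was -0.34. The library labelled LSB male pool 2 had the lowest ratio of the 16, and the ratio of LSB female pool 2 was above that of LSB male pool 1.

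**Figure D3:**
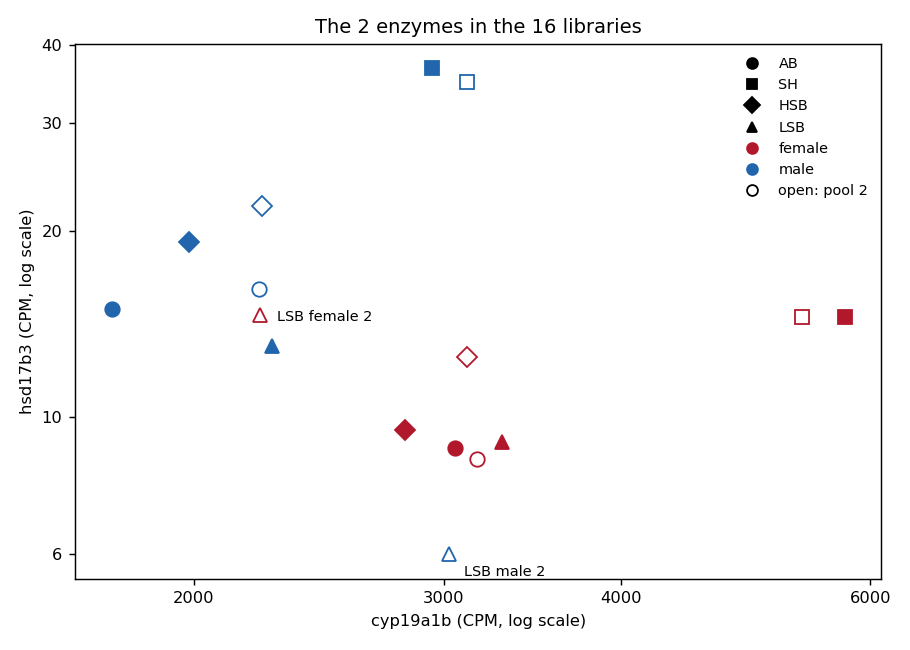
Expression of hsd17b3 against cyp19a1b in each of the 16 libraries, both in CPM on log scales, with females in red, males in blue, a symbol for each strain and open symbols for pool 2. Females lie to the lower right and males to the upper left within AB, SH and HSB, whereas the library labelled LSB female pool 2 (2228 and 14.6 CPM) lies beside LSB male pool 1 and that labelled LSB male pool 2 (3028 and 5.99 CPM) lies at the bottom of the plot.

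Estrogen receptor genes showed small sex differences. The product of esr1 is estrogen receptor alpha, and esr2a and esr2b are the teleost duplicates that encode beta forms. For esr1 (ENSDARG00000004111) the 8 female libraries had 5.61 to 7.28 CPM (median 6.78) and the 8 male libraries 5.55 to 8.71 CPM (median 6.46). The sexes overlapped in SH and LSB. In AB both male pools lay above both female pools, with 7.22 and 8.71 CPM against 6.91 and 6.71 CPM. In HSB they lay below, with 6.47 and 6.45 CPM against 6.78 and 7.28 CPM. Over strains the difference was 0.03 (95% interval -0.12 to 0.18, limma with Benjamini-Hochberg adjusted p = 0.909), and its sign turned in 3 of the 26 alternative fits, among them that without AB. Without LSB it was 0.01 (95% interval -0.17 to 0.19), and without both LSB pools numbered 2 it was 0.03. The highest value was that of AB male pool 2.

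Expression of esr2a (ENSDARG00000016454) was 4.42 to 5.85 CPM in females (median 5.11) and 4.72 to 7.10 CPM in males (median 5.77). Males lay above females in SH, with 5.95 and 7.10 CPM against 4.76 and 5.01 CPM. They also did so in LSB, with 5.60 and 5.40 CPM against 4.54 and 4.42 CPM, where the pools numbered 2 sided with their labels. In AB and HSB the sexes overlapped, with differences of 0.0174 and 0.00280. Over strains the difference was 0.17 (95% interval 0.000973 to 0.33, limma with Benjamini-Hochberg adjusted p = 0.488). Leaving out LSB gave 0.13 (adjusted p = 0.610 in limma) and leaving out both LSB pools numbered 2 gave 0.15 (adjusted p = 0.542).

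For esr2b (ENSDARG00000034181) males were above females in AB, with 9.10 and 10.1 CPM against 7.91 and 7.85 CPM. The same held in HSB, with 8.41 and 8.74 CPM against 7.57 and 7.55 CPM. SH had 6.38 and 7.64 CPM in females and 7.14 and 7.44 CPM in males, and there the sexes overlapped. In LSB they overlapped as well. The pools numbered 1 had 8.31 CPM (female) and 9.99 CPM (male), but those numbered 2 had 9.32 CPM (labelled female) and 7.38 CPM (labelled male). This is the order seen for the enzymes, but the LSB female pools differed by only 1.2 times the error expected from counting reads. For the LSB male pools it was 3.4 times that error, and for hsd17b3 these numbers were 5.6 and 8.6. After subtraction of strain means, r between esr2b and hsd17b3 was 0.73 over 16 libraries and 0.67 without the LSB pools numbered 2. The sex difference of esr2b was 0.11 with all libraries (limma with Benjamini-Hochberg adjusted p = 0.564), 0.16 without LSB (adjusted p = 0.259) and 0.18 without both LSB pools 2 (adjusted p = 0.204).

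The androgen receptor gene ar (ENSDARG00000067976) had 18.0 to 20.7 CPM in females (median 19.7) and 17.7 to 25.1 CPM in males (median 20.9). The direction differed among strains. AB females had 19.5 and 19.2 CPM and males 19.5 and 21.6 CPM. In HSB these values were 19.8 and 19.9 CPM against 23.1 and 20.1 CPM. LSB females had 20.3 and 18.0 CPM and males 22.7 and 25.1 CPM. Males were thus above females in these 3 strains, and in SH they were below, with 18.7 and 17.7 CPM against 18.8 and 20.7 CPM. In AB, HSB and SH the nearest male and female pools differed by less than the counting error. Over strains the difference was 0.10 (95% interval -0.02 to 0.22, limma with Benjamini-Hochberg adjusted p = 0.566), without LSB it was 0.03 (adjusted p = 0.888), and without both LSB pools numbered 2 it was 0.05 (adjusted p = 0.781).

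The progesterone receptor gene pgr (ENSDARG00000035966) had 2.72 and 3.06 CPM in AB females and 2.72 and 2.30 CPM in AB males. SH females had 3.61 and 3.71 CPM and SH males 1.84 and 1.97 CPM. LSB females had 2.83 and 3.05 CPM and LSB males 2.47 and 2.11 CPM. Females were above males in these 3 strains, in LSB also in the pools numbered 2, and AB female pool 1 and AB male pool 1 lay within 0.01 CPM of each other. In HSB the sexes overlapped, with 2.80 and 2.39 CPM in females and 3.11 and 2.57 CPM in males. Over strains the difference was -0.29 (95% interval -0.51 to -0.07, limma with Benjamini-Hochberg adjusted p = 0.359). Without LSB the value was -0.28 (adjusted p = 0.396), and without both LSB pools numbered 2 it was -0.27 (adjusted p = 0.412).

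**Figure D4:**
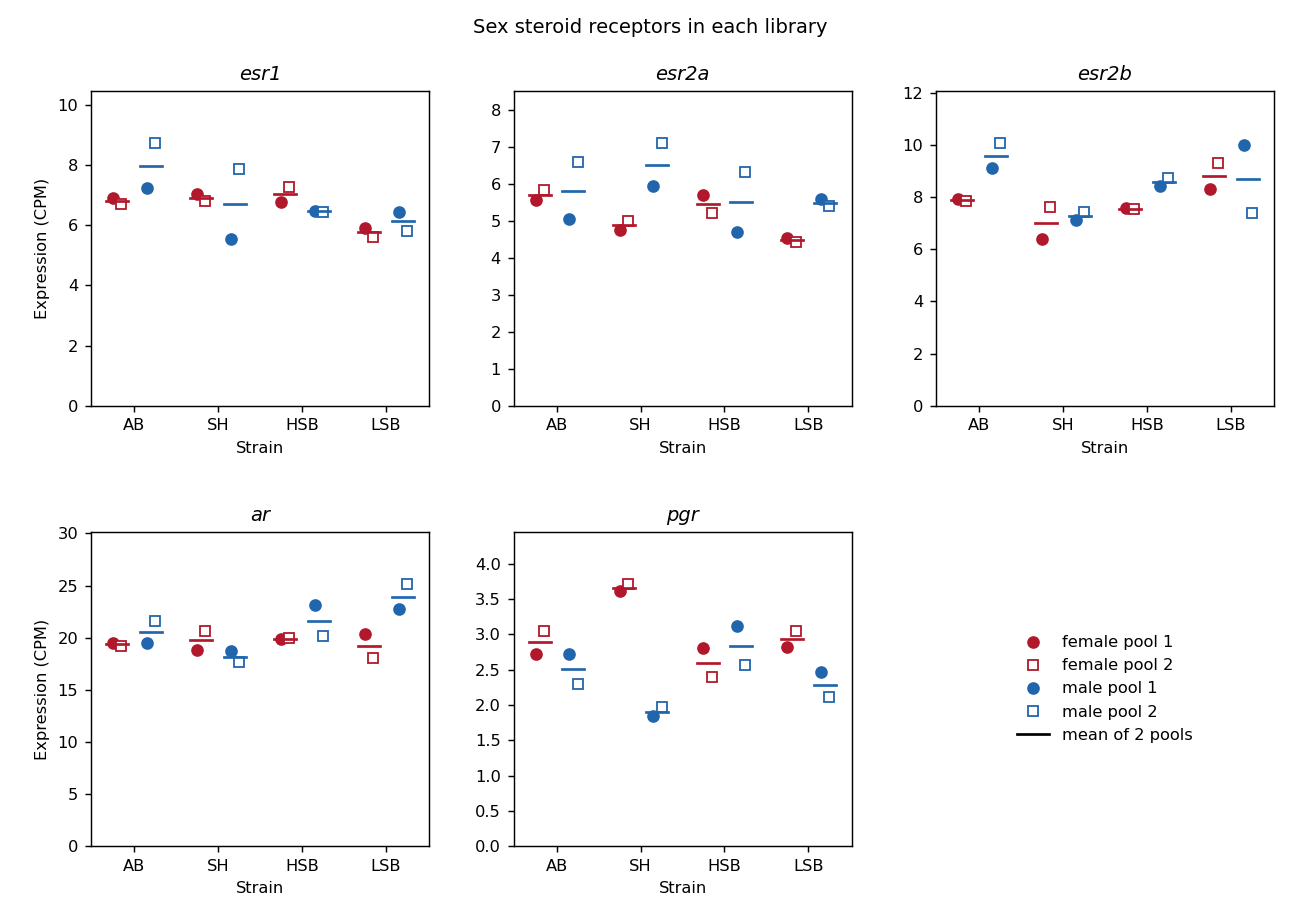
Expression of the 5 receptor genes in CPM for every library, by strain, with females in red, males in blue, pool 1 as filled circles, pool 2 as open squares and a line at the mean of the 2 pools. The sexes lie far apart for pgr in SH (3.61 and 3.71 against 1.84 and 1.97 CPM) and lie close together or overlap in most other panels.

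Within single strains each sex difference rests on 2 pools against 2, with the spread estimated over all 8 groups. Pools of the sexes did not overlap for 6 of 7 genes in AB (36.9% of all genes), 5 of 7 in SH (41.3%), 5 of 7 in HSB (34.4%) and 3 of 7 in LSB (54.0%). In SH the differences were -0.88 for cyp19a1b, 1.27 for hsd17b3 and -0.79 for pgr (limma with Benjamini-Hochberg adjusted p = 0.0867, 0.133 and 0.0791). The number of members called in limma was 0 in AB, where 0.0131% of all genes were called, 0 in SH (0.0392%) and 0 in HSB (0.0% of all genes). At an unadjusted p under 0.05 these numbers were 2 in AB, 4 in SH and 2 in HSB, against 4.91%, 6.14% and 6.36% of all genes. In LSB 1 member was called, against 11.0% of all genes. It was ar, with a difference of 0.31 (SE 0.09, limma with Benjamini-Hochberg adjusted p = 0.0429). That call was lost without the library labelled LSB female pool 2 (adjusted p = 0.293 in limma), without LSB male pool 2 (0.254) and without both (0.605, difference 0.16), and in 11 of the 16 fits that left out 1 library. When LSB was left out of the model, a choice made after the data had been seen, the smaller spread gave calls for cyp19a1b in AB (limma with Benjamini-Hochberg adjusted p = 0.0351) and SH (0.00318) but not in HSB (0.111). It gave calls for hsd17b3 in AB (0.0272), SH (0.000320) and HSB (0.0106), and pgr in SH did not pass (0.0590). In these fits 0.0784% of all genes were called in AB, 0.248% in SH and 0.124% in HSB.

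**Figure D5:**
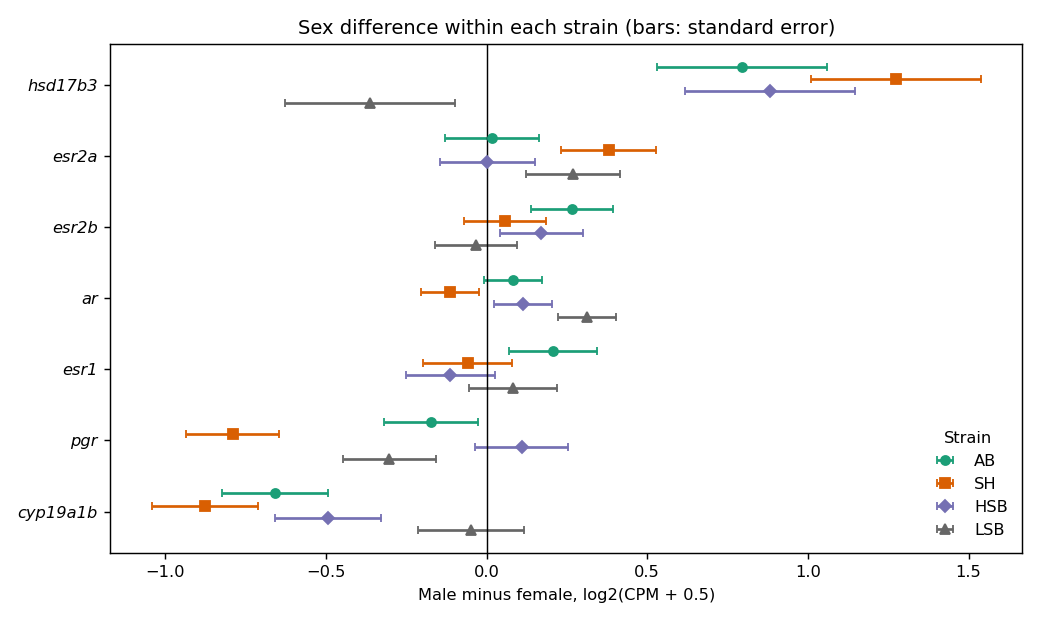
Male minus female difference in log2(CPM + 0.5) of the 7 genes within AB (circles), SH (squares), HSB (diamonds) and LSB (triangles), with standard errors from the model with all 16 libraries. LSB lies apart from the other strains for hsd17b3 (-0.36 against 0.80 to 1.27) and cyp19a1b (-0.05 against -0.88 to -0.49), and SH lies apart for pgr (-0.79).

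Whether these sex differences varied among strains was tested with the sex by strain interaction, in which 0 members were called (limma with Benjamini-Hochberg adjustment), as were 0.0327% of all genes. At an unadjusted p under 0.05 there were 4 of 7, against 16.6% of all genes, with adjusted p from limma of 0.182 for hsd17b3, 0.185 for pgr, 0.239 for cyp19a1b and 0.273 for ar. For pgr the unadjusted p from limma was 0.00544 with all strains and 0.00339 without LSB, where the adjusted p was 0.564. The contrast of LSB with the mean of the other 3 strains was chosen with results of these data known, so it is no independent support. It called 1 member, hsd17b3, against 6.13% of all genes. The sex difference of hsd17b3 in LSB minus that in the other strains was -1.35 (SE 0.31, limma with Benjamini-Hochberg adjusted p = 0.0338). Without both LSB pools numbered 2 this value was -0.49 (limma with Benjamini-Hochberg adjusted p = 0.284). The call was lost in 10 of the 16 fits that left out 1 library, among them those without LSB female pool 2 (adjusted p = 0.157 in limma) and without LSB male pool 2 (0.140). Without LSB female pool 1, cyp19a1b and hsd17b3 were called in the interaction (limma with Benjamini-Hochberg adjusted p = 0.0120 and 0.0166), where 12.7% of all genes were called, and cyp19a1b, hsd17b3 and ar in the contrast, where 22.1% were. For cyp19a1b the contrast with all libraries was 0.63 (limma with Benjamini-Hochberg adjusted p = 0.0626). Without both LSB pools numbered 2 it was 0.14 (adjusted p = 0.746 in limma).

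Strain differences were found for both enzymes, with SH as the strain that stood apart. With sex as a cofactor, 2 of the 7 genes differed among strains, cyp19a1b (limma with Benjamini-Hochberg adjusted p = 0.00178) and hsd17b3 (adjusted p = 0.0103), while 61.5% of all genes did. The share of members was thus below that of all genes. Mean expression of cyp19a1b was 4298 ± 1473 CPM in SH, 2707 ± 540 CPM in LSB, 2550 ± 680 CPM in AB and 2539 ± 520 CPM in HSB (SD, n = 4 libraries, both sexes). No pair of the 3 lower strains passed the limma test. For hsd17b3 the order was SH (25.2 ± 12.3 CPM), HSB (15.8 ± 5.76 CPM), AB (12.1 ± 3.96 CPM) and LSB (10.7 ± 3.90 CPM). No neighbours in this order passed the test, and SH minus HSB was 0.59 (limma with Benjamini-Hochberg adjusted p = 0.110). SH exceeded AB by 0.94 (adjusted p = 0.0142 in limma, and 0.0503 without SH male pool 1) and LSB by 1.13 (adjusted p = 0.00333). The gene esr2b was close to the threshold (adjusted p = 0.0528 in limma), and was past it without LSB (0.0171) and without both LSB pools numbered 2 (0.00950). Without SH, 0 members differed among strains in limma (adjusted p = 0.799 for cyp19a1b and 0.274 for hsd17b3). Calls among all 15304 genes also fell, from 9417 with all strains to 4653 without SH.

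Receptor genes varied less with strain. The order for esr2b was LSB (8.75 ± 1.15 CPM), AB (8.73 ± 1.06 CPM), HSB (8.07 ± 0.600 CPM) and SH (7.15 ± 0.552 CPM; SD, n = 4 libraries). That for esr1 was AB (7.39 ± 0.908 CPM), SH (6.80 ± 0.955 CPM), HSB (6.75 ± 0.388 CPM) and LSB (5.95 ± 0.359 CPM). For esr2b the pairs that passed were SH with AB and with LSB, and for esr1 AB with LSB. In ar the means ran from 19.0 ± 1.25 CPM in SH to 21.6 ± 3.06 CPM in LSB, and in esr2a from 4.99 ± 0.596 CPM in LSB to 5.76 ± 0.640 CPM in AB, and neither gene was called in any pair. The mean of pgr was 2.78 ± 1.02 CPM in SH, 2.72 ± 0.311 CPM in HSB, 2.70 ± 0.310 CPM in AB and 2.61 ± 0.410 CPM in LSB. Its strain means spanned 0.05 in log2(CPM + 0.5), a range smaller than that of all but 1.53% of genes, although SH pools ranged from 1.84 to 3.71 CPM between the sexes. By comparison, 96.5% of genes had a smaller range of strain means than hsd17b3 and 90.6% a smaller range than cyp19a1b.

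By pairs of strains, which share libraries with each other, 3 members differed between AB and SH (36.8% of all genes), namely cyp19a1b and hsd17b3, higher in SH, and esr2b, lower in SH by 0.27 (limma with Benjamini-Hochberg adjusted p = 0.0330). The same 3 differed between SH and LSB (49.0% of all genes), where esr2b was again 0.27 lower in SH (limma with Benjamini-Hochberg adjusted p = 0.0249). Between SH and HSB cyp19a1b alone differed (32.7% of all genes). Between AB and LSB esr1 alone differed (25.8% of all genes), being 0.29 higher in AB (limma with Benjamini-Hochberg adjusted p = 0.0449). In limma 0 members differed between AB and HSB (18.6% of all genes), and 0 between LSB and HSB (21.9% of all genes), the strains selected for opposite stationary behavior. The receptor calls depended on single libraries. With 1 library left out, that of esr1 held in 4 of 16 fits, and it was lost without AB male pool 2 (difference 0.21, adjusted p = 0.151 in limma). For esr2b against AB it was lost in 5 of 16 fits, those without AB male pool 1, AB male pool 2, SH female pool 1, SH male pool 1 or SH male pool 2 (adjusted p up to 0.110 in limma). Against LSB it was lost in 4, those without LSB female pool 2, LSB male pool 1, SH female pool 1 or SH male pool 1 (adjusted p up to 0.0791). For AB with HSB and for LSB with HSB the number of members at an unadjusted p under 0.05 was also 0, against 31.0% and 36.5% of all genes.

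Other genes around these members were examined as lists. Of 42 listed genes of steroid synthesis and conversion, 13 were in the table, and the early genes of the pathway (star, cyp11a1, cyp17a1) were not among them, which says nothing of their level. In limma 0 of the 13 were called for sex, with or without LSB, against 0.0392% and 0.712% of all genes. At an unadjusted p under 0.05 there were 1 and 2, against 10.2% and 12.1% of all genes. The median difference of the 13 was -0.05, with -0.002 for all genes. The largest sex difference without LSB was that of hsd11b2, which encodes an enzyme that inactivates cortisol, at -0.38 (limma with Benjamini-Hochberg adjusted p = 0.0624). That gene had 18.0 to 29.7 CPM in the 6 female libraries of AB, SH and HSB and 12.4 to 23.1 CPM in the 6 male ones. Both female pools lay above both male pools in SH and HSB, and the sexes overlapped in AB and LSB. It was followed by hsd20b2, encoding a 20-beta hydroxysteroid dehydrogenase, at -0.17 (adjusted p = 0.703 in limma). Among strains, tspo, encoding the mitochondrial translocator protein, ranged from 15.4 CPM in SH to 26.6 CPM in LSB, and hsd17b12a, of a family known for fatty acid elongation, from 17.8 CPM in AB to 27.4 CPM in SH.

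Of 18 other steroid receptor genes 13 were in the table, of 21 cofactor and chaperone genes 20, of 18 reproductive neuropeptide genes and their receptors 11, and of 21 regulators of steroidogenic genes 9. In limma 0 genes of each list were called for sex, with or without LSB. With all libraries and an unadjusted p under 0.05 the numbers were 3 other receptors, 0 cofactors, 1 neuropeptide gene and 1 regulator, and without LSB 2, 3, 0 and 1, while 10.2% and 12.1% of all genes reached that level. Examples among the first are paqr6 and paqr7a, which encode membrane progestin receptors, with sex differences of 0.10 and -0.10, and paqr5a with -0.16. Among cofactors, fkbp5, a chaperone of steroid receptors, had -0.30, ptges3b, another co-chaperone, had -0.32 and NCOA7, a nuclear receptor coactivator, had -0.05. Among neuropeptides gnrh3, encoding a gonadotropin-releasing hormone, had -0.26 and kiss2, encoding a kisspeptin, had 0.12. Among regulators, nr0b1, a repressor of steroidogenic genes, had 0.15, foxl2, a transcription factor of the ovary, had -0.01 and arnt, the partner of the aryl hydrocarbon receptor, had 0.10. These values are from the fit with all libraries, and none passed the test in limma, with adjusted p from 0.525 to 0.981. Without LSB foxl2 had -0.16 and NCOA7 had -0.15, whereas ptges3b had -0.08 and arnt had 0.01. There, too, none of the named genes passed in limma, with adjusted p from 0.195 to 0.956. By strain, 7 of 13 enzymes (53.8%), 7 of 13 other receptors (53.8%), 13 of 20 cofactors (65%), 6 of 11 neuropeptide genes (54.5%) and 1 of 9 regulators (11.1%) were called, against 61.5% of all genes.

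Markers of cell types were examined beside the enzymes, since whole brains can differ in makeup. The summed level of 17 radial glia markers, of the cell type that makes brain aromatase, was 13868 to 15053 CPM in females and 14116 to 15589 CPM in males. For sex 0 of the 17 were called in limma. At an unadjusted p under 0.05 there were 2, with and without LSB, against 10.2% and 12.1% of all genes. In SH, where cyp19a1b was highest, the sum of these markers was 13868 to 14539 CPM, against 14116 to 15589 CPM in the other strains. SH females had 13963 and 13868 CPM and SH males 14528 and 14539 CPM, and in the other strains the sexes overlapped. By strain, 9 of the 17 were called in limma (52.9%, against 61.5% of all genes), which the sum does not show. The most abundant of the 17, aldocb, an aldolase, differed by 0.03 between the sexes, and glulb, a glutamine synthetase, by -0.12 (adjusted p = 0.741 and 0.583 in limma). All 9 oligodendrocyte markers had a higher fitted level in males, with a median difference of 0.14. At an unadjusted p under 0.05 in limma there were 8 with all libraries and 9 without LSB, against 10.2% and 12.1% of all genes. After adjustment 1 was called with all libraries, 6 without LSB and 0 without AB, without SH or without HSB. Of all genes 0.0392% were called with all libraries and 0.712% without LSB. Without AB, without SH and without HSB the calls among all genes numbered only 1, 0 and 0. The called gene was myrf, a myelin transcription factor, with 0.19 (limma with Benjamini-Hochberg adjusted p = 0.00688), and mbpa, encoding myelin basic protein, had 0.08. Without LSB the others called were mpz, plp1b, mag and cldnk, which encode myelin proteins, and olig2, a transcription factor of the lineage, with differences from 0.12 for mag to 0.27 for olig2. The sum of these markers was 26646 to 52143 CPM in females and 29657 to 44489 CPM in males. In AB, SH and HSB both male pools were above both female pools, and in LSB the labelled females were higher (44531 and 52143 against 43975 and 41658 CPM). The sum also went with strain, at 26646 to 32035 CPM in SH and 35969 to 52143 CPM in the other strains. The part of radial glia and of oligodendrocytes in the differences of the members was not tested.

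No marker in the table was at 0 in any library. Skeletal muscle markers summed to 32.5 to 581 CPM in female libraries and 36.9 to 2569 CPM in male ones. The value of 2569 CPM was that of AB male pool 2. In AB, SH and HSB both male pools were above both female pools. In LSB the labelled females were higher (501 and 581 against 116 and 301 CPM). The fitted level was higher in males for 9 of 10 markers, with 0.96 for actc1b and 1.36 for ckmb, and 0 were called in limma. At an unadjusted p under 0.05 there was 1 with all libraries and 8 without LSB. Of all genes 10.2% and 12.1% reached that level. In SH, where the enzymes differed most between the sexes, the sum was 33.6 and 32.5 CPM in the female pools and 140 and 36.9 CPM in the male pools. Of 11 listed pituitary markers 1 was in the table (pomca), at 1.89 to 3.01 CPM, and the levels of the others are not known from it. Of the gonad markers 1 of 14 was in the table (zp3b), at 1.12 to 6.36 CPM. Neuron markers summed to 4995 to 6294 CPM over 7 genes, with 0.14 for nefma. Those of blood summed to 950 to 2143 CPM over 3 genes, with -0.01 for hbaa1 and 0.13 for slc4a1a, and those of retina and pineal to 5.05 to 79.5 CPM over 7 genes, with -0.12 for gnat1 and -0.32 for rho. In limma 0 genes of these 5 lists were called for sex, and 1 had an unadjusted p under 0.05 (a neuron marker). Without LSB 0 were called and 3 had such a p (2 of neurons, 1 of blood), and without both LSB pools numbered 2 nefma was called. The part of muscle in the differences of the members was not tested.

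The genes whose profiles were most like those of the members were found by Pearson's r over the 16 libraries, as a description of libraries that share strain, sex and depth. For hsd17b3 these were si:dkey-238o13.4 (r = 0.98), CR391967.1 (0.92) and dio2 (0.91), which encodes the deiodinase that activates thyroid hormone, and the same 3 led after subtraction of strain means. These genes were picked for following hsd17b3 over the same libraries, so their values in the LSB pools numbered 2 say nothing further about the labels. There dio2 had 128 CPM in the library labelled female and 40.1 CPM in that labelled male. LSB female pool 1 had 50.4 CPM and LSB male pool 1 had 117 CPM. For cyp19a1b the most similar genes were CCDC108 (0.89), SLC35G1 (0.87) and cldn11a (0.87). None of these remained after subtraction of strain means, when f13a1a.1 led with r = 0.96. For receptors the likeness was lower, and after subtraction of strain means 1 of the 3 leading genes remained for esr1, esr2a and esr2b each and 0 for ar and pgr. Without both LSB pools numbered 2, of the 3 leading genes 2 remained for hsd17b3, esr1, esr2a and pgr each, 1 for cyp19a1b and 0 for esr2b and ar. With all libraries the likeness of the receptors was led by si:ch211-222k6.3 (0.81), aass and mpv17 for esr1, by slc7a3a (0.81), SEC14L1 (1 of 2) and ASTN2 (1 of 2) for esr2a, and by CKAP2 (0.83), CDCA2 and erp44 for esr2b. For ar it was led by fign (0.78), colq and ndp, and for pgr by dhtkd1 (0.76), znf668 and zgc:55461. Among the members themselves, esr2a and pgr had r = -0.75 after subtraction of strain means, and -0.73 without the LSB pools numbered 2.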

How the data were processed

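RNA-sequencing of whole brain from 16 pools was analysed. According to the methods, the authors aligned single-end reads to the zebrafish genome with GSNAP (build Zv9 and CASAVA 1.7 in the submitters' processing notes), obtained gene counts from HTSeq (union mode), and used edgeR. The TruSeq V2 kit they name is generally known not to mark strand; the sources used here do not state it. The deposited values are CPM, scaled by the authors to 1000000 per library, without further scaling between libraries. Column names gave strain, sex and pool, and 0 columns belonged to other samples.

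Log2(CPM + 0.5) was fitted with limma 3.58.1 (lmFit, and eBayes with a trend) in R 4.3.3 over 15304 genes. The models held sex and strain as cofactors, or a mean for each strain and sex. Python 3.11.15 with scipy 1.17.1 and numpy 2.4.6 gave the other values. Reads per value come from CPM, since the 3000 lowest values of each library are multiples of what 1 read is worth (within 0.02 reads). The table, already filtered, holds fewer low values than the standard required here for count tests on such reads, so none were run and the reads only describe depth. The limma test of sex over 16 libraries was tried on simulated data, in which no library went against its label. All genes there had the same extra spread between libraries, unlike the data. Of 200 changed genes, 116 were recovered at 1.25-fold and 198 at 1.5-fold. The other limma fits were not simulated. In limma fits with a mean for each strain and sex, p-values measure the spread between pools of different fish. In those with sex and strain as cofactors, that spread also includes variation of the sex difference among strains.

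All 7 members are named. From each list the text names genes called for sex and those with the largest changes between sexes or strains (mean CPM of at least 1), from each marker list the most abundant gene and that with the largest sex difference, and for each member the 3 genes most like it. The most abundant gene of 1 marker list is not reported here. Members and lists were chosen with earlier results of these data known; f13a1a.1 was chosen after its values were seen. The 7 members were matched by symbol in RefSeq (GRCz12tu), which was used only for overlapping genes: cyp19a1b overlaps si:ch1073-340j19.1 and LOC141380869, ar overlaps si:dkey-204l11.1, and none of these 3 is in the table. Alternatives were rescaling by median ratio, a minimum mean CPM of 1, added constants of 0.1 and 1, a replicate block, and leaving out strains, single libraries or both LSB pools numbered 2.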

Additional observations from a re-analysis of the deposited data

Results flagged for a closer look

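Over 42 sets of 4 libraries or more in which a single library could be compared with the rest, 2 held a library far from the others, and chance gives about 1 in 20. Both concern ar. Its value in AB male pool 2 (21.6 CPM) stood apart from the other 3 AB libraries, and its value in HSB male pool 1 (23.1 CPM) stood apart from the other 3 HSB libraries. The third result is the sex difference of hsd17b3 in LSB. In a contrast chosen with results of these data known, it differed from the mean of the other 3 strains by -1.35 in log2(CPM + 0.5) (limma with Benjamini-Hochberg adjusted p = 0.0338). Without both LSB pools numbered 2 the value was -0.49 (adjusted p = 0.284 in limma).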

How the results depend on the processing

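Of 182 sex differences of the members over strains, recomputed under 26 alternatives, 179 kept their direction. The exceptions were esr1 without AB (-0.0297), without AB male pool 2 (-0.0100) and without SH male pool 2 (-0.00509); with 1 library left out it ranged up to 0.0798. Without LSB, 109 genes in all and 2 members differed between the sexes, and without both LSB pools numbered 2, 80 and 2. Without AB, SH and HSB the number of genes was 1, 0 and 0. Members called within strains rose to 2 in AB, 2 in SH and 1 in HSB without LSB, and to the same numbers without both LSB pools numbered 2, when LSB had 0, with at most 0.248% of all genes called in any of these fits. Without these pools the LSB difference was 0.49 for hsd17b3 and 0.25 for esr2b, both reversed. The fits of the interaction and of single strains, and the correlations of members, without LSB libraries were chosen after seeing the data. Without SH, 4653 genes and 0 members differed among strains.

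Rescaling by median ratio gave 4 members that differed among strains (ar and esr2b in addition) beside 60.4% of all genes, 609 genes in the contrast of LSB with the other strains, and 0 members called within LSB. It moved the median gene by at most 0.07 between strains.

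Pool numbers were not taken to pair the samples. Deviations of female and male pools with the same number had r from -0.21 in LSB to 0.31 in HSB. Between strains within a sex, r ran from -0.14 to 0.27. Such correlations cannot show that pairing was absent, and the LSB value includes the pools that went against their labels. With a replicate block, 0 genes were called in the interaction, 0 genes and 0 members in the LSB contrast, and 0 members within LSB.

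With 1 library left out, called genes ranged from 5 to 52 for sex (members 0 to 2), from 0 to 1947 for the interaction (members 0 to 2) and from 0 to 3381 for the LSB contrast (members 0 to 3). Members called within strains ranged from 0 to 1 in SH and from 0 to 1 in LSB. Ranges that crossed 0 were -0.16 to 0.19 for esr2a in AB, -0.19 to 0.20 for esr2a in HSB, -0.29 to 0.17 for esr1 in SH, -0.0640 to 0.178 for esr2b in SH and -0.00783 to 0.226 for pgr in HSB. In LSB they were -0.33 to 0.23 for cyp19a1b, -0.89 to 0.17 for hsd17b3 and -0.24 to 0.17 for esr2b. In these fits a lone pool was assumed to vary like the other groups. The causes were not tested.

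Depth limits pgr most. Its counting error was 0.18 to 0.28 in log2 per pair of pools, and 0 of its 8 pairs differed by more than 2 such errors, against 8 of 8 for cyp19a1b.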
